A study of Mus musculus with 6 samples.

Results

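The adenosine, tryptophan and arginine enzymes described here are 9 genes, Nt5e, Entpd1, Ada, Ido1, Kynu, Arg1, Arg2, Nos2 and Il4i1, whose products make or remove small molecules that act on immune cells. The choice was made by gene symbol, with earlier results of these data known, and all 9 were found among the 55298 gene rows of the files. RNA was sequenced from cancer-associated fibroblasts of orthotopic lung tumours in wild-type C57BL/6 mice over 8 weeks old. The 3 apCAFs libraries (1, 2 and 3) came from cells with surface MHC class II, the complex that presents antigen to CD4 T cells, and the 3 nonapCAFs libraries (4, 5 and 6) from cells without it. Both groups shared the rest of the gate, which kept large cells that carried podoplanin and PDGFRA and lacked CD45, CD31, EPCAM and the mCherry reporter. Tumours were pooled in 3 independent experiments, so a library stands for no single animal, and the labels do not say which libraries share an experiment. Values are the authors' normalized counts, which correct for differences between libraries and are rounded to whole numbers. Sequencing depth is unknown.

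The 3 pathways are textbook routes of immune restraint. Extracellular ATP is an alarm signal, and the ectoenzymes CD39 (Entpd1) and CD73 (Nt5e) cut it in turn to AMP and to adenosine, which quiets T cells through its receptors until adenosine deaminase (Ada) converts it to inosine. Indoleamine 2,3-dioxygenase (Ido1) opens the kynurenine route of tryptophan breakdown, kynureninase (Kynu) acts further down it, and the secreted oxidase IL4I1 consumes aromatic amino acids. Arginase (Arg1 in the cytosol, Arg2 in mitochondria) and inducible nitric oxide synthase (Nos2) compete for arginine, the former yielding urea and ornithine and the latter nitric oxide.

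The libraries carried fibroblast transcripts throughout. The summed normalized counts of 7 fibroblast markers ran from 2792063 to 4217767 in apCAFs and from 1190772 to 1425779 in nonapCAFs. Most of each sum was Col1a1, Col1a2 and Col3a1. Of the 7, 3 were called higher in apCAFs (the call is defined below). All 3 apCAFs libraries lay above all 3 nonapCAFs libraries, or stood apart upwards, for 6. Over all tested genes 3.91% were called higher and 17.1% stood apart upwards (25.5% of those whose mean was 100 or more). Lum stood apart downwards, at 11026, 11304 and 8086 in apCAFs 1, 2 and 3 and 21256, 19490 and 15611 in nonapCAFs 4, 5 and 6. The 3 class II chain genes used for the gate summed to between 46815 and 90882 in apCAFs and to between 793 and 1070 in nonapCAFs. The sum of surfactant and other markers of alveolar type II cells set apCAFs 3 apart. The 8 genes summed to 92779, 76552 and 5582 in apCAFs 1, 2 and 3 and to between 5696 and 5945 in nonapCAFs. Abca3 did not follow this, at 4895, 4389 and 4425 in apCAFs 1, 2 and 3. Most of each nonapCAFs sum was Abca3 and Lamp3. Epithelial markers were present although the gate left out EPCAM, but they had no common pattern. Of 7, Krt19 (20.4-fold) and Cldn3 (44.4-fold) were called higher in apCAFs, both highest in apCAFs 3 (3805 and 2603). Epcam itself read 181, 209 and 21 in apCAFs 1, 2 and 3 and 13, 3 and 5 in nonapCAFs 4, 5 and 6. Cdh1 also stood apart upwards. Krt8 (3693 ± 1281 against 3376 ± 472), Krt18 (4040 ± 1741 against 5431 ± 1055) and Scgb1a1 overlapped between the groups. The part of alveolar type II and other epithelial cells in the results was not tested. Libraries apCAFs 1 and 2 were close to each other, with an SD of 0.238 for the log2 ratio over the 17829 genes whose mean was 100 or more, as were nonapCAFs 4 and 5 (0.246). The remaining within-group pairs had SDs from 0.479 to 0.708. If a close pair came from a single sort, its libraries are not independent replicates.

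Of the 9 enzymes, 1 was called different between the groups: Nt5e rose in apCAFs. The call is an adjusted p under 0.05 in limma, fitted to log2(value + 1) over 36443 genes and adjusted over all of them, and with it 4.40% of all tested genes were called (3.91% higher and 0.486% lower in apCAFs). The split of the 1602 calls was 1425 higher and 177 lower; it was 1685 and 1339 with values given as CPM (counts relative to the library total) and 1049 and 281 with quantile-normalized values. Kynu was at 0 in all 6 libraries and was not tested, and the other 8 were above 0 in every library. Of these 8, Nt5e, Entpd1, Arg2 and Nos2 had all 3 apCAFs libraries above all 3 nonapCAFs libraries, and none had all 3 below. That is 4 of 8, where 17.1% of all tested genes, and 25.5% of those whose mean was 100 or more, had groups that stood apart in this direction (15.4% and 25.9% in the other). An unadjusted p under 0.05 was reached by the same 4 genes, and by 19.3% of all tested genes. The median log2 difference of the 8 was 0.80, and that of all tested genes was -0.04. In the authors' deposited table the same 4 genes were higher at a DESeq2 adjusted p under 0.05, against 20.6% of the genes with an adjusted p there (9.77% were lower).

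**Figure D1:**
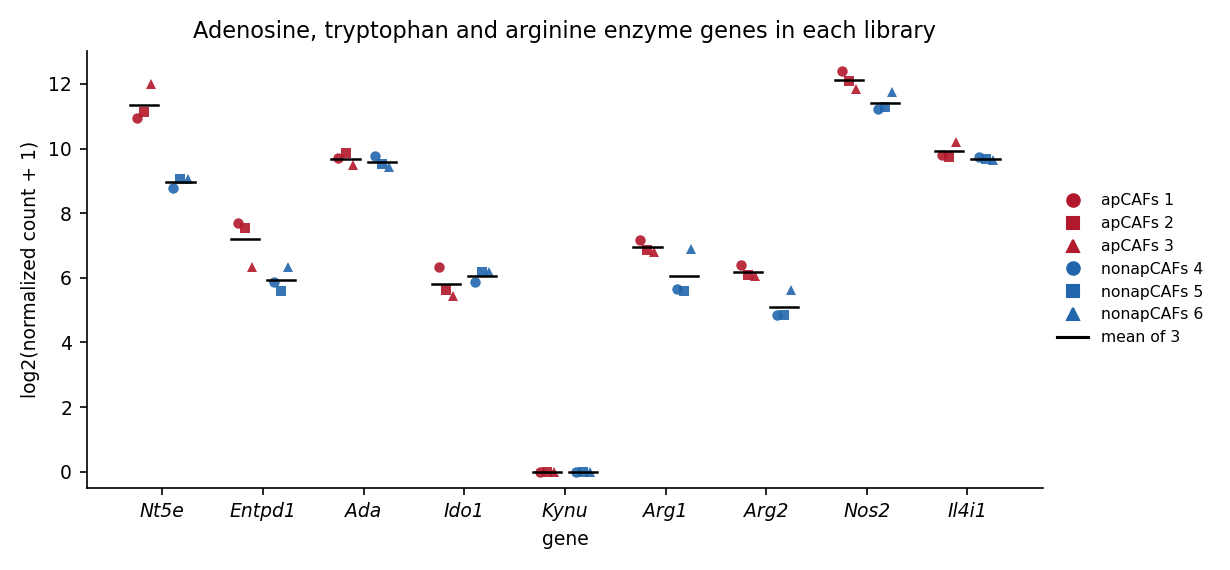
Normalized counts of the 9 enzyme genes on the log2(normalized count + 1) scale (y axis), 1 point per library and a bar at the mean of 3; red points are apCAFs 1 to 3 and blue points nonapCAFs 4 to 6. The 2 clouds are farthest apart for Nt5e (1971 to 4110 against 440 to 537), and Kynu lies at 0 throughout.

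Set on a scale per kilobase of exon, which allows levels of different genes to be compared roughly, Nos2 stood first in both groups. Exon length is that of all annotated transcripts merged. Nt5e, Arg1 and Il4i1 include transcripts with a retained intron, which can lengthen the model and lower the value per kb. It had 1016 ± 200 normalized counts per kb in apCAFs and 628 ± 126 in nonapCAFs (SD, n = 3). Ada followed with 413 ± 50.3 and 382 ± 50.3. In apCAFs Nt5e came next with 322 ± 136, its libraries overlapping those of Ada above it and of Il4i1 below it (239 ± 46.0). In nonapCAFs Il4i1 (201 ± 7.25) stood above Nt5e (58.3 ± 6.20), and their libraries did not overlap. The place of Il4i1 is uncertain in both groups: 83.9% of its exon bases lie opposite Tbc1d17, and without the strand setting their reads cannot be told apart. The remaining genes were faint. In apCAFs Arg1 (54.9 ± 7.67) and Arg2 (50.4 ± 6.68) overlapped, as did Ido1 (31.1 ± 11.2) and Entpd1 (28.4 ± 12.3). In nonapCAFs Ido1 (36.3 ± 4.43) overlapped Arg1 (32.0 ± 18.1), Arg1 overlapped Arg2 (24.3 ± 8.09), and Entpd1 was below all of them (11.0 ± 2.91).

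Nt5e encodes CD73, the enzyme that turns AMP outside the cell into adenosine. The gene lies on mouse chromosome 9 (GRCm38, 88327197 to 88372092, plus strand), with 8602 exon bases that no other annotated gene shares. Its normalized count was 1971, 2229 and 4110 in apCAFs 1, 2 and 3 and 440, 537 and 527 in nonapCAFs 4, 5 and 6. The lowest apCAFs library was thus above the highest nonapCAFs library, and apCAFs 3 was the highest of all. The difference was 5.25-fold (log2 2.39, SE 0.32, 95% interval 1.59 to 3.19, limma adjusted p = 0.0247). The authors' deposited table gives log2 2.46 with a DESeq2 adjusted p of 1.76e-14.

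The size of the Nt5e difference moved little between settings, while its call did not hold in most of them. Over 21 other settings the log2 difference lay between 2.07 and 2.60. The adjusted p was 0.0124 without apCAFs 3. Leaving out apCAFs 1 or apCAFs 2 gave 0.0569 and 0.0694, and leaving out nonapCAFs 4, 5 or 6 gave 0.0952, 0.0867 and 0.0698 in that order. With an experiment term under each of the 6 possible pairings it lay between 0.0694 and 0.152, and with the close pairs averaged it was 0.215. Calls over all genes also fell where the Nt5e call was lost. With the experiment term or the close pairs averaged, limma called 0 of all tested genes. Leaving out a library other than apCAFs 3 gave 0.863% to 2.27%, against 4.40% with all libraries and 4.98% without apCAFs 3. Mesothelial markers also differed between the groups: 6 of 7 were called higher in apCAFs, where 3.91% of all tested genes were. None of the 7 was at 0 in all libraries. Their sum ran from 36818 to 47728 in apCAFs and from 5073 to 5863 in nonapCAFs. The remaining marker, Bnc1, was flat (3410 ± 594 against 3247 ± 114). Within apCAFs, 3 of the 7 were highest in apCAFs 1 and 4 in apCAFs 3, the library where Nt5e was highest. The part of mesothelial cells in the Nt5e difference was not tested. In libraries made from many cells, more cells that express a gene and more RNA per cell cannot be told apart.

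**Figure D2:**
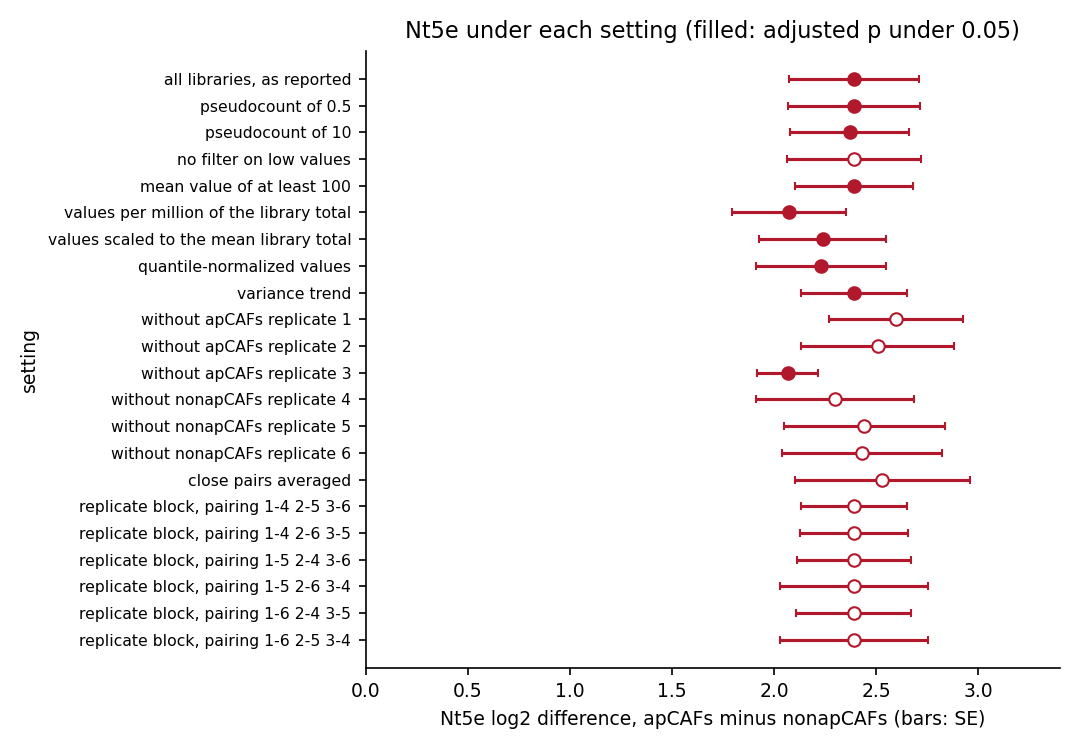
Log2 difference of Nt5e (x axis, apCAFs minus nonapCAFs, bars are the SE) under each setting (y axis); filled points have an adjusted p under 0.05. All estimates lie between 2.07 and 2.60, and 9 of the 22 points are filled, the reported fit among them. With the close pairs averaged and with the replicate block, 0 of all 36443 tested genes were called.

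The RefSeq start of Nt5e is shown beside that of Ada because these genes encode the enzyme that makes adenosine and the enzyme that removes it, and only the former was called. Of the 9 genes, Nt5e, Entpd1, Ada and Il4i1 have entries in the RefSeq promoter table used (GRCm38.p6), with windows of 250 bases before and 50 bases after the annotated start. Capitals mark GC boxes, searched as GGGCGG on both strands; in Nt5e each capital block holds 2 matches that overlap. The windows are chr9:88327359-88327658 on the plus strand and chr2:163750190-163750489 on the minus strand. The RefSeq start of Nt5e, 88327609, lies 412 bases inside the gene model given above, so the whole window is within that model, whereas that of Ada coincides with the start of its model.
Nt5e: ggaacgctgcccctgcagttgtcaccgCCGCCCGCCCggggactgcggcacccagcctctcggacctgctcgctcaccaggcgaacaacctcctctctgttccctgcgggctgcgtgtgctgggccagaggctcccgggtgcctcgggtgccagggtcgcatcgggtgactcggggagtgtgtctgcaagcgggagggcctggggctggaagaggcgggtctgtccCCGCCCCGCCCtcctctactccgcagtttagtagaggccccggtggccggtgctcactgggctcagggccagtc
Ada: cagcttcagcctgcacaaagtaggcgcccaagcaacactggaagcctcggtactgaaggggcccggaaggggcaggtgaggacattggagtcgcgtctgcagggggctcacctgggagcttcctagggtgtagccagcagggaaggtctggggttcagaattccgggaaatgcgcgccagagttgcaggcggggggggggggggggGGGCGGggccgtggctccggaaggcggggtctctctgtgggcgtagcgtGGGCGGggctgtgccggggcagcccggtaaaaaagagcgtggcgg
The Nt5e window held 4 GC boxes and the Ada window 2, where 35.7% of 32851 promoter windows of this length held at least 1. GC content was 71.0% and 68.0%, against a median of 52.7% over all windows. The Nt5e window had no match to ACGTG (a hypoxia response core, in 19.6% of all windows), TGACG (a cyclic AMP response element half-site, 20.8%), TGANTCA (an AP-1 site, 7.8%) or TTCNNNGAA (a gamma activated site, 8.3%). Ada had 1 match to TTCNNNGAA.

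Entpd1 encodes CD39, which supplies CD73 with AMP. It lies on chromosome 19 (40612366 to 40741602, plus strand), where no other annotated gene shares its 5580 exon bases. It read 208, 187 and 80 in apCAFs 1, 2 and 3 and 58, 47 and 79 in nonapCAFs 4, 5 and 6. The groups did not overlap, but apCAFs 3 exceeded nonapCAFs 6 by a single count. The log2 difference was 1.27 (2.41-fold, SE 0.43, 95% interval 0.17 to 2.37) and did not pass in limma (adjusted p = 0.205), while the authors' deposited table gives a DESeq2 adjusted p of 0.0192. Without apCAFs 3 the log2 difference was 1.70 (limma adjusted p = 0.0515), and with values given as CPM it was 0.61. On the CPM scale the pseudocount of 1 stands for 78.0 to 93.3 of the deposited counts, which shrinks differences of faint genes; scaled to the mean library total with the pseudocount unchanged, Entpd1 had 1.12.

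Entpd1 is also made by leukocytes and endothelial cells, so their markers are given beside it. The 8 macrophage markers summed to between 1940 and 3426 in apCAFs and to between 1133 and 1330 in nonapCAFs, most of it Csf1r, and 0 of 8 were called; Ptprc, the gene of CD45, was between 2 and 65 in all libraries. The 7 endothelial markers summed to between 2256 and 3682 against 354 to 458, most of it in apCAFs Kdr, the 1 gene of the 7 that was called, while Pecam1 lay between 20 and 129. Neutrophil markers summed to 73 to 258 against 30 to 133 (1 of 6 called, Mpo), and lymphocyte markers to 47 to 114 against 19 to 53 (0 of 8 called). None of these markers was at 0 in all libraries. Entpd1 and the sum of the type II markers were both higher in apCAFs 1 and 2 than in apCAFs 3. Abca3 among those markers was not, at 4895, 4389 and 4425 in apCAFs 1, 2 and 3. The single markers had no common order: of the 8 macrophage markers 3 (Adgre1, Marco and Itgam) were highest in apCAFs 1 and 5 in apCAFs 3, and of the 7 endothelial markers 2 were highest in apCAFs 1, 1 in apCAFs 2 and 4 in apCAFs 3. Their part in the Entpd1 values was not tested.

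Ada, the deaminase that removes adenosine, did not separate the groups. The gene lies on chromosome 2 (163726584 to 163750239, minus strand; 2002 exon bases). It read 833, 923 and 722 in apCAFs 1, 2 and 3 and 880, 727 and 690 in nonapCAFs 4, 5 and 6, so the groups overlapped. The log2 difference was 0.11 (SE 0.18, 95% interval -0.33 to 0.55, limma adjusted p = 0.716), and it took the opposite sign when values were given as CPM (-0.037), scaled to the mean library total (-0.042) or quantile-normalized (-0.093). A ratio within a library does not depend on scaling between libraries: Nt5e per kb over Ada per kb was 0.551, 0.562 and 1.33 in apCAFs 1, 2 and 3 and 0.116, 0.172 and 0.178 in nonapCAFs 4, 5 and 6. The lowest ratio in apCAFs was above the highest in nonapCAFs. The ratio of Nt5e to Entpd1 per kb overlapped, at 6.15, 7.73 and 33.3 against 4.92, 7.41 and 4.33.

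**Figure D3:**
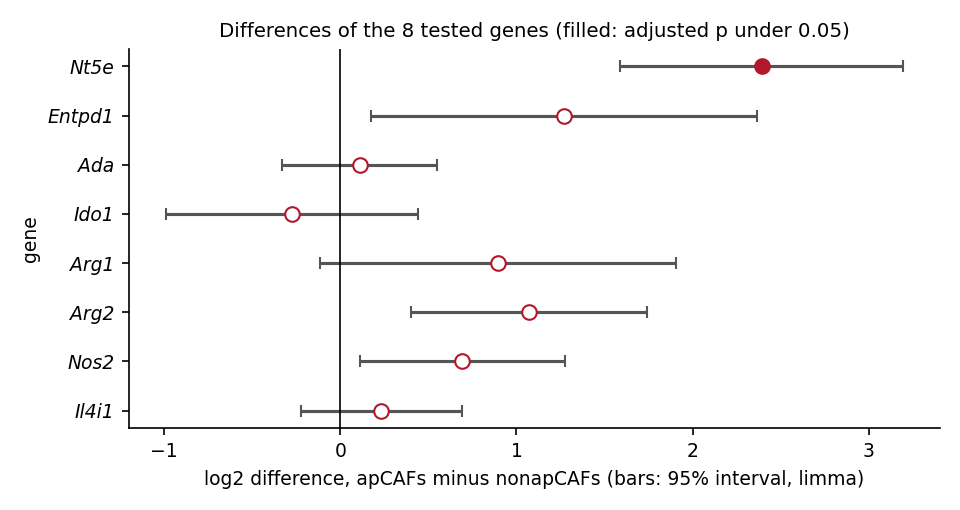
Log2 difference, apCAFs minus nonapCAFs (x axis), of the 8 tested enzyme genes (y axis) with limma's 95% interval, unadjusted; the filled point has an adjusted p under 0.05. Nt5e lies at 2.39, the intervals of Entpd1, Arg2 and Nos2 lie above 0 without passing after adjustment, and those of Ada, Ido1, Arg1 and Il4i1 cross 0.

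Other genes of nucleotide and adenosine handling were listed as context, 27 in all, of which 5 were called higher in apCAFs and none lower. Their median log2 difference was 0.67, against -0.04 over all tested genes, and 17 had groups that stood apart upwards and 3 downwards. Over all tested genes 3.91% were called higher, 17.1% stood apart upwards and 15.4% downwards, and 21 of the 27 had a mean of 100 or more, where 25.5% stood apart upwards. With values given as CPM 6 were called higher and 2 lower, against 4.62% and 3.67% of all genes, and with values scaled to the mean library total 3 were called, all higher (3.20%). Dpp4, which encodes CD26, a surface peptidase to which adenosine deaminase docks in humans, read 1318, 1122 and 1632 in apCAFs 1, 2 and 3 and 144, 230 and 106 in nonapCAFs 4, 5 and 6 (8.77-fold, limma adjusted p = 0.0173). Its lowest apCAFs library was far above its highest nonapCAFs library. Pnp, the phosphorylase that takes inosine onward to hypoxanthine, had 17863 ± 5599 against 6493 ± 258 (2.67-fold, limma adjusted p = 0.0440); 18.0% of its exon bases are shared with Gm49342 on the same strand.

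Of the other called adenosine context genes, Enpp2 encodes autotaxin, an ectoenzyme of the nucleotide pyrophosphatase family that makes lysophosphatidic acid. Its mean of 20174 ± 11015 in apCAFs compares with 3559 ± 207 in nonapCAFs (5.19-fold, limma adjusted p = 0.0375), with apCAFs 3 at 32892 and apCAFs 1 and 2 at 13895 and 13734. Entpd5, a relative of Entpd1 that prefers UDP and GDP, had 2496 ± 175 against 1195 ± 152 (2.10-fold, limma adjusted p = 0.0319). Among the adenosine receptors the faint Adora1 was called, at 75, 53 and 114 against 9, 16 and 19 (5.18-fold, limma adjusted p = 0.0404); 20.1% of its exon bases lie opposite Mybph. Its log2 difference of 2.37 was 0.66 with values given as CPM and 2.23 with values scaled to the mean library total, and its call was lost in 15 of 20 settings. The other called context genes of the 3 lists lost their calls in 11 (Dpp4) to 16 (Slc7a7 and Sat1) of 21 settings. The other receptors were not called. Adora2b had 1515 ± 277 against 1115 ± 85.3 (limma adjusted p = 0.286). Adora2a, picked after its values were seen, read 553, 524 and 1034 against 136, 239 and 231 (limma adjusted p = 0.0719; 1.36e-05 by DESeq2 in the authors' deposited table). The most abundant uncalled genes per kb besides Adora2b were Slc29a1, an equilibrative nucleoside transporter (5120 ± 506 against 7464 ± 728, limma adjusted p = 0.144), and Ahcy (4897 ± 394 against 4135 ± 232, limma adjusted p = 0.381).

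On the tryptophan side, Ido1 was not called and Kynu was listed at 0. Ido1 (chromosome 8, 24584136 to 24597009, minus strand; 1825 exon bases, none shared) read 80, 48 and 42 in apCAFs 1, 2 and 3 and 57, 71 and 71 in nonapCAFs 4, 5 and 6. The groups overlapped, with apCAFs 1 highest and apCAFs 3 lowest, and the log2 difference was -0.27 (SE 0.28, 95% interval -0.99 to 0.44, limma adjusted p = 0.566). It was the 1 tested enzyme of the 8 with a difference below 0, and it was as faint as the median gene: 52.1% of the tested genes had a larger mean value. Kynu (chromosome 2, 43555329 to 43682715, plus strand; 6149 exon bases) was listed at 0 in every library. Dendritic cell markers, which can accompany Ido1, summed to 2041 to 2276 in apCAFs and 2179 to 2219 in nonapCAFs with 0 of 7 called, and Cd209a among them was at 0 in every apCAFs library. The even sum held markers that stood apart in opposite directions: Zbtb46 read 860, 802 and 1782 against 405, 422 and 355, while Itgax (249.0 against 545.0 on average), Clec9a (656.0 against 1141) and Flt3 (25.0 against 90.3) had every apCAFs library below every nonapCAFs library. Their part in the Ido1 values was not tested.

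The 22 other tryptophan genes included 1 that was at 0 in all libraries (Aadat); of the 21 tested, 3 were called higher in apCAFs and none lower, where 3.91% of all tested genes were called higher. Their median log2 difference was 0.27, and 10 had groups that stood apart upwards and 3 downwards. Over all tested genes 17.1% and 15.4% did. Of the 21, 14 had a mean of 100 or more, where 25.5% stood apart upwards and 25.9% downwards. Tdo2, which encodes tryptophan 2,3-dioxygenase and catalyses the same step as Ido1, read 570, 630 and 248 in apCAFs 1, 2 and 3 and 35, 42 and 87 in nonapCAFs 4, 5 and 6 (8.70-fold, limma adjusted p = 0.0393). Even apCAFs 3, the lowest of its group, exceeded every nonapCAFs library. Slc7a8, which encodes the neutral amino acid exchanger LAT2, read 1757, 1635 and 5786 against 58, 70 and 227 (25.9-fold, limma adjusted p = 0.0362). Cyp1b1, a known target of the aryl hydrocarbon receptor that kynurenine can bind, had 54599 ± 34784 against 5754 ± 2204 (8.78-fold, limma adjusted p = 0.0378), with apCAFs 3 at 94764.

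The receptor gene itself, Ahr, picked after its values were seen, read 4598, 4376 and 8304 in apCAFs and 1730, 1685 and 2073 in nonapCAFs and missed the threshold (3.02-fold, limma adjusted p = 0.0525). The most abundant uncalled tryptophan genes per kb were Slc3a2, Slc7a5 and Wars. Slc7a5, the LAT1 exchanger that carries tryptophan with the Slc3a2 chain, read 12385, 11402 and 5143 against 17586, 17159 and 19229 (limma adjusted p = 0.236). Its libraries stood apart downwards, the opposite of Slc7a8. Slc3a2 had 16230 ± 719 against 14811 ± 815 (limma adjusted p = 0.538), with the sign reversed in CPM and with values scaled to the mean library total (log2 -0.02 in both), and Wars, the tryptophan tRNA ligase, 9095 ± 217 against 7539 ± 452 (limma adjusted p = 0.307).

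**Figure D4:**
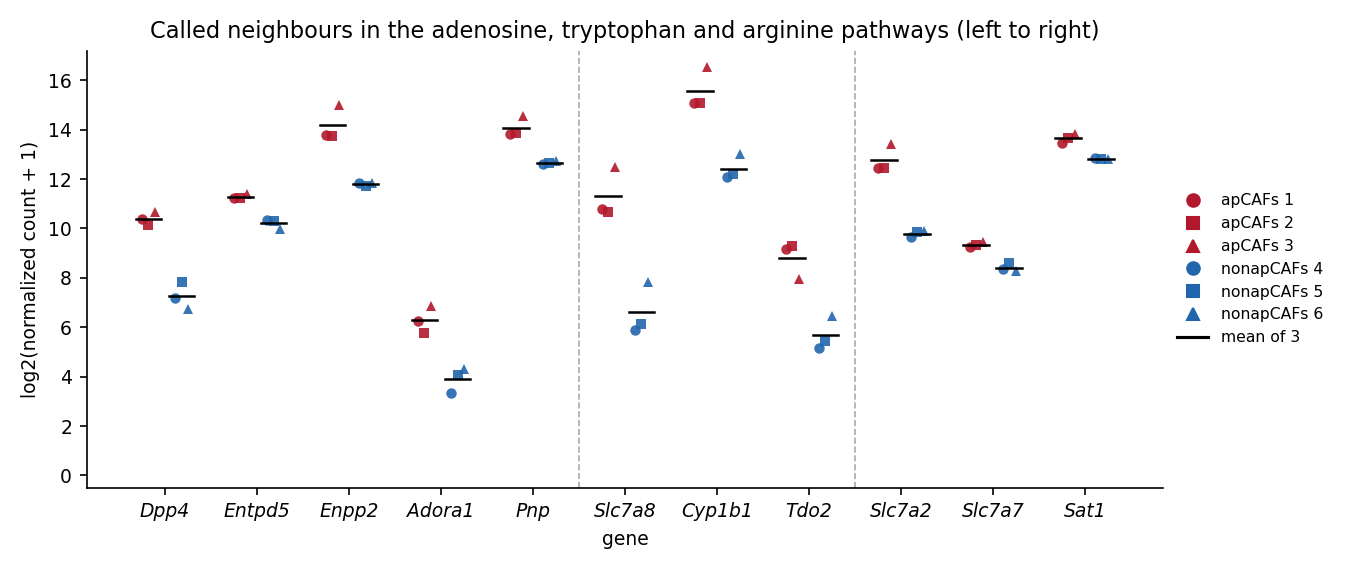
Log2(normalized count + 1) (y axis) of the 11 called context genes, 1 point per library and a bar at the mean of 3, with the adenosine, tryptophan and arginine lists separated by dashed lines; apCAFs are red and nonapCAFs blue. All 11 have every apCAFs library above every nonapCAFs library, as in Tdo2 (248 to 630 against 35 to 87).

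Of the 3 arginine enzymes, Nos2 was by far the most abundant. The gene (chromosome 11, 78920787 to 78960254, plus strand; 4412 exon bases, none shared) encodes inducible nitric oxide synthase. It read 5423, 4349 and 3674 in apCAFs 1, 2 and 3 and 2398, 2503 and 3412 in nonapCAFs 4, 5 and 6. All apCAFs libraries were above all nonapCAFs libraries, by a narrow margin between apCAFs 3 and nonapCAFs 6. The log2 difference was 0.69 (1.62-fold, SE 0.23, 95% interval 0.11 to 1.28) and did not pass in limma (adjusted p = 0.196, and between 0.0528 and 0.574 over the alternatives), while the authors' deposited table gives a DESeq2 adjusted p of 0.00715. Of all tested genes, 15.5% had a larger mean value than Nos2.

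The arginases were faint in both groups. Arg1 (chromosome 10, 24915221 to 24927484, minus strand; 2228 exon bases) read 142, 114 and 111 in apCAFs 1, 2 and 3 and 49, 47 and 118 in nonapCAFs 4, 5 and 6. The groups overlapped through nonapCAFs 6, and the log2 difference was 0.90 (SE 0.40, 95% interval -0.11 to 1.91, limma adjusted p = 0.296); without nonapCAFs 6 it was 1.32 (limma adjusted p = 0.0538). Arg2 (chromosome 12, 79130777 to 79156301, plus strand; 1428 exon bases) read 83, 67 and 66 against 28, 28 and 48. Its groups stood apart, with nonapCAFs 6 again the highest of its group, at a log2 difference of 1.07 (2.10-fold, SE 0.27, 95% interval 0.40 to 1.74). It did not pass in limma (adjusted p = 0.103; 0.0536 without nonapCAFs 6), and the authors' deposited table gives a DESeq2 adjusted p of 0.0487. The log2 difference of Arg2 was 0.33 in CPM and 0.92 with values scaled to the mean library total.

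Of the Arg2 exon bases, 20.0% lie opposite exons of Vti1b, which had 4073 ± 378 in apCAFs and 4238 ± 229 in nonapCAFs. The strand setting of the counting is not given in the sources used here, so how many Arg2 counts are reads of Vti1b cannot be told. The ratio of Arg1 to Arg2 per kb was 1.10, 1.09 and 1.08 in apCAFs 1, 2 and 3 and 1.12, 1.08 and 1.58 in nonapCAFs 4, 5 and 6. The ratio of Nos2 to Arg1 per kb overlapped between groups, at 19.3, 19.3 and 16.7 against 24.7, 26.9 and 14.6. Both arginases and Nos2 are known from macrophages. The 8 macrophage markers summed to more in every apCAFs library (1940 to 3426) than in any nonapCAFs library (1133 to 1330). Of the 8, 0 were called. Most of the sum was Csf1r, which stood apart upwards with Cd68, and the other markers overlapped between the groups. The sum was highest in apCAFs 3, where Nos2 (3674), Arg1 (111) and Arg2 (66) were lowest within apCAFs. The part of macrophages in the values of these enzymes was not tested.

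Of 27 other arginine genes, Otc was at 0 throughout, and of the 26 tested 3 were called higher in apCAFs and none lower. Their median log2 difference was -0.14, and 8 had groups that stood apart upwards and 9 downwards. Over all tested genes 3.91% were called higher, 17.1% stood apart upwards and 15.4% downwards; 23 of the 26 had a mean of 100 or more, where 25.5% stood apart upwards and 25.9% downwards. With values given as CPM 4 were called higher and 4 lower (4.62% and 3.67% of all genes), and 1 was called with quantile-normalized values and with values scaled to the mean library total. Slc7a2, the cationic amino acid transporter CAT2 that brings arginine into the cell, read 5532, 5646 and 11032 in apCAFs 1, 2 and 3 and 807, 916 and 939 in nonapCAFs 4, 5 and 6 (7.91-fold, limma adjusted p = 0.0169). Its groups were far apart, with apCAFs 3 the highest. Slc7a7, part of an exchanger of cationic for neutral amino acids, had 649.3 ± 42.1 against 342.3 ± 39.5 (1.90-fold, limma adjusted p = 0.0382), and Sat1, which acetylates the polyamines that arginase supplies through ornithine, 12873 ± 1530 against 7275 ± 173 (1.76-fold, limma adjusted p = 0.0497).

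The most abundant uncalled arginine genes per kb act on ornithine and polyamines. Oat, ornithine aminotransferase, had 12988 ± 3420 in apCAFs and 6915 ± 405 in nonapCAFs (limma adjusted p = 0.105). Odc1, which commits ornithine to polyamines, had 15594 ± 5855 against 21735 ± 3803 (limma adjusted p = 0.452), and Srm, spermidine synthase, 5665 ± 487 against 6917 ± 247 (limma adjusted p = 0.306). Gch1, which makes the cofactor of nitric oxide synthases and was picked after its values were seen, had 2449 ± 235 against 1616 ± 119 (limma adjusted p = 0.101).

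Calls fell over all genes when a library other than apCAFs 3 was left out, from 1602 to between 310 and 810, and those among the context genes fell as well. Of all tested genes, 4.98% (1791) were called without apCAFs 3, against 4.40% with all libraries. The share was 1.15% and 0.863% without apCAFs 1 and 2, and 1.29%, 1.39% and 2.27% without nonapCAFs 4, 5 and 6. Of the adenosine genes 5 were called without apCAFs 3 (4 higher and 1 lower), but none without apCAFs 1, apCAFs 2 or nonapCAFs 4 and 1 each without nonapCAFs 5 or 6. Of the tryptophan genes 3 were called without apCAFs 3, 2 without nonapCAFs 6 and none without any other library. Of the arginine genes 2 were called without apCAFs 3, 1 without apCAFs 1 and none without any other library. The size of the differences moved less: over these 6 settings the log2 difference lay between 2.88 and 3.43 for Dpp4, between 2.86 and 3.54 for Tdo2 and between 2.66 and 3.16 for Slc7a2. Of the 11 called context genes Slc7a8 moved most, from 4.70 to 4.11 without apCAFs 3 and to 5.30 without nonapCAFs 6. In CPM the log2 differences of the fainter genes were smaller, at 1.86 for Tdo2, 3.67 for Slc7a8 and 2.45 for Dpp4.

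Il4i1, the amino acid oxidase, had overlapping values in the groups, and most of its exon bases lie opposite another gene. It read 887, 845 and 1189 in apCAFs 1, 2 and 3 and 850, 817 and 791 in nonapCAFs 4, 5 and 6. The groups overlapped, apCAFs 3 was the highest, and the log2 difference was 0.23 (SE 0.18, 95% interval -0.22 to 0.69, limma adjusted p = 0.518). The gene model (chromosome 7, 44816387 to 44840809, plus strand) has 4080 exon bases, of which 86.3% are shared with other genes: 83.9% lie opposite exons of Tbc1d17, 2.4% on the same strand as Nup62 and 2.0% opposite Atf5. In RefSeq the gene starts at 44836288, far inside that model. Tbc1d17 had 2760 ± 262 in apCAFs and 2455 ± 311 in nonapCAFs, and Il4i1 per kb over Tbc1d17 per kb lay between 0.671 and 0.928 in all 6 libraries. Without the strand setting, reads of Il4i1 and Tbc1d17 cannot be told apart.

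For the 5 enzymes whose mean was 100 or more, the 3 genes with the most similar profile were found among 13259 genes by the root mean square difference of centred log2 values over the 6 libraries. Nt5e was closest to Slit3 (0.0740), which read 36088, 35063 and 66053 in apCAFs 1, 2 and 3 and 7280, 8534 and 8913 in nonapCAFs 4, 5 and 6, then to Dnaja4 (0.0743) and Rtl6 (0.0826). Entpd1 had no near neighbour, its closest being Adh1 (0.302), Mmp8 (0.308) and Unc13d (0.322). Nos2 was closest to Zfp473 (0.0544), Eps8l2 (0.0974) and Ly6c2 (0.104). Ada (Rpl41, Rps15-ps3 and Arhgef39, 0.0427 to 0.0441) and Il4i1 (Bcl2l2, Dzip1l and Prickle4, 0.0239 to 0.0284) had flat profiles, for which small distances are common. These likenesses describe 6 libraries in 2 groups, and genes that differ between the groups by a similar amount are close by construction.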

How the data were processed

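RNA from 3 apCAFs and 3 nonapCAFs libraries was analysed. Trim Galore, Bowtie2, DESeq2 and the build mm10 appear in the submitters' processing notes; no source used here gives the counter or the strand setting. Each deposited value is a score that the authors made from gene counts by normalizing between libraries, per the file headers; all are whole numbers but not raw counts. Totals ran from 77960347 to 93330791 and are not depths, so no counting interval is given. The authors' deposited table adds log2 values, a fold change as a ratio with its log2, DESeq2 p-values and adjusted p-values, and the GC percent of each gene, per the file headers; that percent was not used.

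The test was limma (version 3.58.1, R 4.3.3) on log2(value + 1) for 36443 genes with any value above 0, comparing the groups without other terms; p-values are two-sided and Benjamini-Hochberg adjusted over these genes. Folds are 2 to the power of the log2 difference and understate changes of faint genes. The fit was tested on simulated data. P-values set the difference between groups against the spread between these libraries, which limma moderates over all genes. The libraries are pools, so this is not the spread between animals. The members and lists were chosen with earlier results of these data known. Named genes are all 9 members, the called genes of each context list (up to 8) with the 3 most abundant uncalled ones per kb, and the 3 nearest profiles; others are marked. Coordinates are those of the files. Of 55298 gene identifiers, 55117 were in GENCODE M21 (GRCm38), 99.5% with identical coordinates, and exon lengths and overlaps are from there. Alternatives were other pseudocounts, filters and scalings (library totals as CPM or at their mean, quantiles), a variance trend, leaving out each library, averaging the close pairs, and an experiment term.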

Additional observations from a re-analysis of the deposited data

How the results depend on the processing

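Each setting changed 1 choice, except that values given as CPM with a pseudocount of 1 change the scaling and also the weight of the pseudocount. Scaling to the mean library total with the pseudocount unchanged, and all settings for the context lists, were added after the data were seen. The count of called enzymes was 1 as reported and 1 with a pseudocount of 0.5 or 10, with only genes whose mean was 100 or more, in CPM, with values scaled to the mean library total, with quantile-normalized values, with a variance trend and without apCAFs 3. It was 0 with no filter on low values, with the close pairs averaged and with a replicate block (an experiment term) under each of the 6 possible pairings, and it ranged from 0 to 1 when single libraries were left out. The numbers in the labels (1 to 3, then 4 to 6) do not give the pairing. A balanced block leaves each difference as it is and takes degrees of freedom from the error, and over all genes limma then called 0 as well (5316 to 6680 at an unadjusted p under 0.05), as it did with the close pairs averaged (4700 at an unadjusted p under 0.05).

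Called adenosine, tryptophan and arginine context genes were 5, 3 and 3 as reported, where 4.40% of all genes were called. All 3 counts were 0 with no filter (0.788% of all genes), with the close pairs averaged and with the replicate block under each pairing, and they ranged from 0 to 5, 0 to 3 and 0 to 2 when single libraries were left out. Calls over all genes also rose in the settings with more context calls: adenosine calls were 9 with a pseudocount of 10 (6.93% of all genes), and adenosine and arginine calls were 11 and 5 for genes whose mean was 100 or more (15.4% of those tested), 8 and 8 in CPM (8.30%) and 12 and 5 with a variance trend (9.48%). With values scaled to the mean library total they were 3 and 1 (3.71%), and arginine calls were 1 with quantile-normalized values (3.65%). The sign turned for Ada in CPM (-0.037), with values scaled to the mean library total (-0.042) and with quantile-normalized values (-0.093), and for Slc3a2 in CPM and with values scaled to the mean library total (-0.02 in both); of the tested enzymes the other 7 kept their sign in every setting. The median log2 difference of all genes was -0.19 after quantile normalization, -0.18 with values scaled to the mean library total and -0.04 as reported. The cause of these changes was not tested.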

Other observations

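Genes described here were picked after their values were seen. Acpp encodes prostatic acid phosphatase, which can also make adenosine from AMP outside the cell, and its values ran opposite to those of Nt5e. It read 423, 339 and 151 in apCAFs 1, 2 and 3 and 1104, 1037 and 1167 in nonapCAFs 4, 5 and 6, so every apCAFs library was below every nonapCAFs library. The log2 difference was -1.98 (SE 0.41, limma adjusted p = 0.0683, and between 0.0104 and 0.284 over the 21 alternatives), and the authors' deposited table gives log2 -1.86 with a DESeq2 adjusted p of 4.26e-06. Per kb of exon, Acpp stood at 41.5 in apCAFs and 150.4 in nonapCAFs, where Nt5e stood at 322.0 and 58.3. The order of Acpp and Nt5e on this scale thus differed between the groups. Alpl, another gene of the adenosine list, stood at 293.5 in apCAFs and 216.2 in nonapCAFs.

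P2rx7, which encodes a receptor for extracellular ATP, the substrate of CD39, read 1618, 1369 and 3005 in apCAFs 1, 2 and 3 and 510, 550 and 657 in nonapCAFs 4, 5 and 6. The groups stood apart, with apCAFs 3 the highest, at a log2 difference of 1.72 (SE 0.34, limma adjusted p = 0.0595, and between 0.0074 and 0.283 over the 21 alternatives). The authors' deposited table gives a DESeq2 adjusted p of 2.62e-07.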
